A study of Homo sapiens with 4 samples.

Results

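The desmosome is the button-like junction through which keratin filaments of neighbouring epithelial cells are joined. 10 genes that encode its parts were followed in FADU cells: DSP, PPL, JUP, PKP1, PKP2, PKP3, DSG2, DSG3, DSC2 and DSC3. They were taken by gene name from the 62077 rows of the gene expression table, on chromosome rows only. A further row named JUP lay on a patch sequence, was listed at 0 in the 4 libraries and was left out. All 10 members passed the minimum of a mean of 1 FPKM, which 15057 genes passed in all.

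FADU is an established line from a squamous carcinoma of the hypopharynx, cultured in DMEM with 10% FBS and 1% penicillin-streptomycin. The 4 libraries were N-scr (normoxia, scrambled control), N-si (normoxia, TET1-si), H-scr (hypoxia, scrambled control) and H-si (hypoxia, TET1-si). Hypoxia was 19 h at 1% O2, 5% CO2 and 94% N2, and normoxia was air with 5% CO2. All 4 libraries came from cells infected with a lentiviral hairpin vector, and knockdown cells were used several days after infection, per the study's methods. Each group had 1 library, so no difference below has a replicate check, no p-value is given, and every comparison is between those libraries. In RNA from whole cultures, fewer cells that express a gene and less RNA per cell cannot be told apart. TET1, the knockdown target, had 0.129 FPKM in scrambled and 0.0493 in TET1-si cells at normoxia, and 0.331 and 0.122 at hypoxia, on approximately 28, 11, 76 and 26 reads. Its level was lower in each TET1-si library than in the scrambled library of the same oxygen state.

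In a desmosome, the desmogleins and desmocollins are cadherins that cross the membrane and bind their counterparts on the next cell. Plakoglobin (JUP) and the plakophilins (PKP1 to PKP3) are armadillo-repeat proteins that hold the cadherin tails in the plaque. Desmoplakin (DSP) ties the plaque to keratin filaments, and periplakin (PPL) is a related plakin that also binds filaments. In stratified epithelia DSG2, DSC2 and PKP2 are the widely expressed forms, whereas DSG3, DSC3 and PKP1 are forms of squamous layers. Loss of plakoglobin is often read together with loss of E-cadherin as a sign of epithelial-mesenchymal transition, the process the study examined under hypoxia.

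The sequence that defines the knockdown is shown first, because each TET1-si value rests on the hairpin made to it:
TET1 target: CCTTGATAGAATCACTCAGTT
This run of 21 bases lies in exon 12 of 12 of TET1, at chr10:70451833-70451853 (plus strand, hg19), in the untranslated part of the last exon. TET1 was the only gene among the annotated transcripts that held all 21 bases. In the canonical transcripts of the 10 desmosome genes the longest run shared with it was 6 to 9 bases. Whether such short matches had an effect on these genes was not tested.

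Of the 10 genes, 7 had promoter windows in RefSeq (GRCh38.p14), with 9 windows between them. Windows of the 4 cadherin genes are printed, since these genes lie side by side and differed in their response to TET1-si. Each holds the 250 bases before an annotated start, 5′ to 3′ along the gene. Capitals mark ACGTG and GCGTG, the core of the hypoxia response element bound by HIFs, and CAGGTG, an E-box bound by SNAI and ZEB repressors, each on either strand:
DSG2 (chr18:31497927-31498176, plus strand): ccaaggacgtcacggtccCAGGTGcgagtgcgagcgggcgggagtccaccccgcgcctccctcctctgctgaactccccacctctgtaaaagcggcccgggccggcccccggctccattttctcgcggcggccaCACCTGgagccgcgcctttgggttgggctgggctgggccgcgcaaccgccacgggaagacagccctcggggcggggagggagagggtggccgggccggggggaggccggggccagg
DSG3 (chr18:31447491-31447740, plus strand): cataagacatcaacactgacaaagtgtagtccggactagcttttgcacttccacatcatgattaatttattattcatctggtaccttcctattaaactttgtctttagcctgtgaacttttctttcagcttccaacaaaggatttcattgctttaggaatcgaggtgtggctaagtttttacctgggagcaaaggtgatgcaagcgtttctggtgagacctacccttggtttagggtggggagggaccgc
DSC2 (chr18:31101261-31101510, minus strand): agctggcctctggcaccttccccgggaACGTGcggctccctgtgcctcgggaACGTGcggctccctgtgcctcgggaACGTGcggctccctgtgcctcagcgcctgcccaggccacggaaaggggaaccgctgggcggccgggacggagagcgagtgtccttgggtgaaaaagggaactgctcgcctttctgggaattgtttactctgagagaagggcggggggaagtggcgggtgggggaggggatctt
DSC3 (chr18:31042743-31042992, minus strand): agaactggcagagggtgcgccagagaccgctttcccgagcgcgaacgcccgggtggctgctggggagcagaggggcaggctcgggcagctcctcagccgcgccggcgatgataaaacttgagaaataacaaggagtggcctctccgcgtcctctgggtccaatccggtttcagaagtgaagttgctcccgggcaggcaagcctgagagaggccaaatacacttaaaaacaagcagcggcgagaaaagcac
DSC2 held 3 copies of ACGTG, which began 25 bases apart in a repeated stretch. DSG2 held 2 E-boxes, and no match stood in the windows of DSG3 and DSC3. The second DSC2 window held 1 E-box and no hypoxia element core. DSP had 2 E-boxes, JUP had a core in each of its windows and 2 E-boxes in 1 of them, and the PKP1 window had no match. Over the 35116 windows of this length, 43.2% held a hypoxia element core and 17.5% an E-box. Of the 9 windows of the members 3 held a core and 4 an E-box, which lay in 2 and 4 of the 7 genes. CpG dinucleotides numbered 33 in the DSP window and 26 in that of DSG2, against 4 in that of DSG3. The median over all windows was 11. These are matches of letters, and binding was not measured here.

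The first question was how much of each component FADU cells carried. In N-scr the order of levels ran from PKP3 (116.1 FPKM) through DSG2, JUP, PPL, DSP, DSC3 and PKP2 to DSG3, DSC2 and PKP1 (2.69 FPKM). FPKM are scaled by exon length, so levels were set side by side between genes. Counting intervals do not cover the transcript lengths used for this scaling or reads shared between genes. In H-si the order was led by PPL (244 FPKM), and DSG3 was last (11.05 FPKM). Neighbours in the order that did not differ beyond their 95% counting intervals were DSG3 and PKP1 in N-si, JUP and PKP3 in H-scr, PKP1 and DSC2 in H-scr, and DSG2 and PKP3 in H-si. The 10 levels summed to 507 FPKM in scrambled and 567 in TET1-si cells at normoxia, and 636 and 894 at hypoxia.

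**Figure D1:**
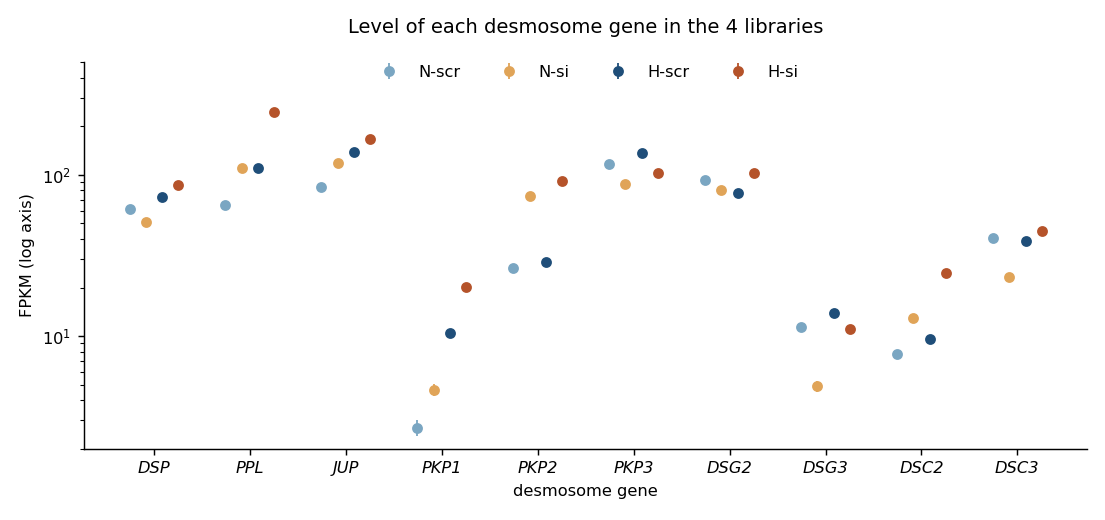
FPKM (log axis) of the 10 desmosome genes in the 4 libraries, with bars for 95% counting intervals, mostly smaller than the points. H-si holds the highest point of 8 genes, and H-scr that of PKP3 and DSG3, with no share of all genes computed for this count.

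H-si was the highest library for 8 of the 10 genes. For the other 2, PKP3 and DSG3, H-scr was highest. The lowest library was N-scr for PPL, JUP, PKP1, PKP2 and DSC2, N-si for DSP, PKP3, DSG3 and DSC3, and H-scr for DSG2. The share of all genes with each library highest or lowest was not computed, so these counts have no background. The ratio of the highest to the lowest library ran from 1.33 for DSG2 to 7.53 for PKP1.

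The plakins were described first. DSP (ENSG00000096696, chromosome 6, 7541808 to 7586950, hg19 here and below) had 61.1 FPKM in scrambled and 50.7 in TET1-si cells at normoxia, and 72.8 and 86.3 at hypoxia. The hypoxia libraries were above both normoxia libraries. PPL (ENSG00000118898, chromosome 16, 4932508 to 5010742) had 64.7 FPKM in scrambled and 109.6 in TET1-si cells at normoxia, and 110.2 and 244 at hypoxia. H-si stood apart from the other libraries, and N-si and H-scr lay close together.

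JUP (ENSG00000173801, chromosome 17, 39775692 to 39943183) had 83.7 FPKM in scrambled and 118.7 in TET1-si cells at normoxia, and 138 and 166 at hypoxia. It was therefore higher in hypoxia in each knockdown state and higher with TET1-si in each oxygen state. The locus that the table gives for JUP reaches KRT17, a keratin on the same strand. KRT17 had 1503 FPKM in scrambled and 764 in TET1-si cells at normoxia, and 2741 and 1783 at hypoxia. EIF1, on the other strand, and HAP1 also lie within it. How reads were shared between overlapping genes was not stated, and its part in the JUP value was not tested.

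The plakophilins differed from each other in pattern. PKP1 (ENSG00000081277, chromosome 1, 201252580 to 201302121) had 2.69 FPKM in scrambled and 4.62 in TET1-si cells at normoxia, and 10.4 and 20.2 at hypoxia. Its hypoxia libraries were above both normoxia libraries, and TET1-si was the higher in each oxygen state. PKP2 (ENSG00000057294, chromosome 12, 32943679 to 33049774) had 26.5 FPKM in scrambled and 74.4 in TET1-si cells at normoxia, and 28.9 and 90.9 at hypoxia. Here the libraries divided by knockdown and not by oxygen. PKP3 (ENSG00000184363, chromosome 11, 392614 to 404908) had 116.1 FPKM in scrambled and 88.2 in TET1-si cells at normoxia, and 136 and 102.8 at hypoxia. It was lower with TET1-si in each oxygen state, the reverse of PKP1 and PKP2.

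The desmogleins lie next to each other on chromosome 18. DSG2 (ENSG00000046604, 29078006 to 29128971) had 92.4 FPKM in scrambled and 80.0 in TET1-si cells at normoxia, and 77.3 and 103.1 at hypoxia. It was the most even member. DSG3 (ENSG00000134757, 29027758 to 29058665), the desmoglein recognised by autoantibodies in pemphigus vulgaris, had 11.4 FPKM in scrambled and 4.88 in TET1-si cells at normoxia, and 13.8 and 11.05 at hypoxia. N-si stood below the other libraries.

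The desmocollins lie on the other side of the same cluster. DSC2 (ENSG00000134755, chromosome 18, 28645940 to 28682378) had 7.72 FPKM in scrambled and 12.9 in TET1-si cells at normoxia, and 9.58 and 24.4 at hypoxia. TET1-si libraries were above both scrambled libraries. DSC3 (ENSG00000134762, chromosome 18, 28569974 to 28622781) had 40.3 FPKM in scrambled and 23.1 in TET1-si cells at normoxia, and 38.6 and 45.0 at hypoxia. As with DSG3, N-si was the low library and the other libraries lay close together.

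The next comparison asked which members responded to hypoxia. In scrambled cells 8 of 10 members were higher in H-scr than in N-scr, against 7969 of all 15057 genes. The median change of the members was 0.26 on the log2(FPKM + 0.1) scale, against 0.05 over all genes. At least 2-fold higher were 1 of 10 members, PKP1, and 12.9% of all genes. At least 2-fold lower were 0 of 10 members and 4.53% of all genes. PKP1 changed by 1.92, or 3.88-fold, with a counting interval of the log2 ratio from 1.78 to 2.14. PPL and JUP followed with 1.70-fold and 1.65-fold, and the remaining changes lay between -0.26 (DSG2) and 0.31 (DSC2). The share of 2-fold members was thus no higher than that of all genes.

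In TET1-si cells all 10 members were higher in H-si than in N-si, against 7756 of all 15057 genes. The median change of the members was 0.84, against 0.03 over all genes. At least 2-fold higher were 3 of 10 members, PKP1, DSG3 and PPL, and 12.5% of all genes. At least 2-fold lower were 0 of 10 members and 8.66% of all genes. PKP1 was 4.38-fold higher, DSG3 2.26-fold (interval of the log2 ratio 1.04 to 1.32) and PPL 2.23-fold (1.13 to 1.18). DSC3 and DSC2 lay just inside the 2-fold limit, with 1.95-fold and 1.89-fold, and with upper-quartile or TPM scaling the count was 5 of 10, against 14.7% and 15.6% of all genes. PKP3 and PKP2 had the smallest changes, 1.17-fold and 1.22-fold. PKP1 was the only member at least 2-fold higher in hypoxia in each knockdown state, which held for 6.73% of all genes.

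**Figure D2:**
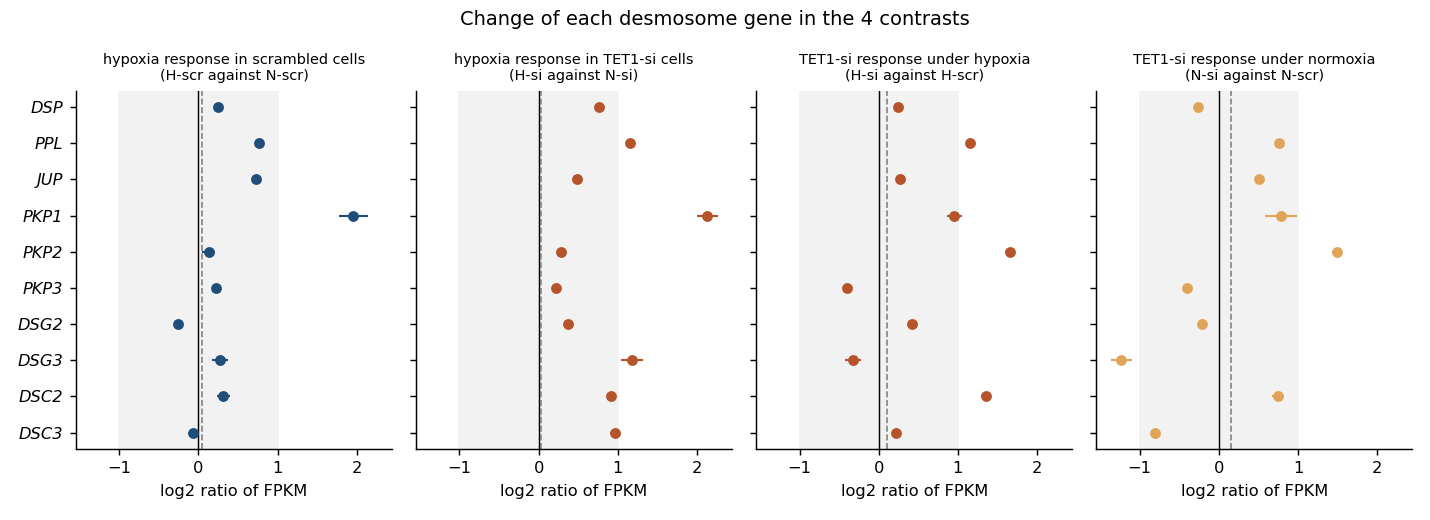
Log2 ratio of FPKM for each desmosome gene (rows) in the 4 contrasts (panels), with bars for 95% counting intervals, a dashed line at the median of all genes and grey shading within 2-fold. In the second panel all 10 genes lie right of 0, and in the fourth 5 lie on each side.

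The difference between these hypoxia responses, TET1-si less scrambled, had a median of 0.45 over the members, against -0.06 over all genes. It was above 0 for 8 of 10 members and for 6717 of all 15057 genes. It was largest for DSC3, at 1.02 (counting interval 0.95 to 1.10), DSG3, at 0.89 (0.74 to 1.08), DSG2, at 0.62 (0.57 to 0.68), and DSC2, at 0.61 (0.51 to 0.71). The 4 cadherin genes thus had the largest differences among the members. DSP followed with 0.51 (0.47 to 0.56), an interval that overlapped that of DSC2, and PPL with 0.39. JUP had the opposite sign, at -0.24 (-0.30 to -0.18). For PKP1 (-0.05 to 0.39) and PKP3 (-0.07 to 0.07) the counting interval included 0. DSG2 and DSC3 were lower in hypoxia in scrambled cells, with changes of -0.26 and -0.06, and higher in TET1-si cells, at 0.37 and 0.96. The DSC3 value in scrambled cells turned to 0.055 with TPM. With single libraries the difference has no test across cultures.

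**Figure D3:**
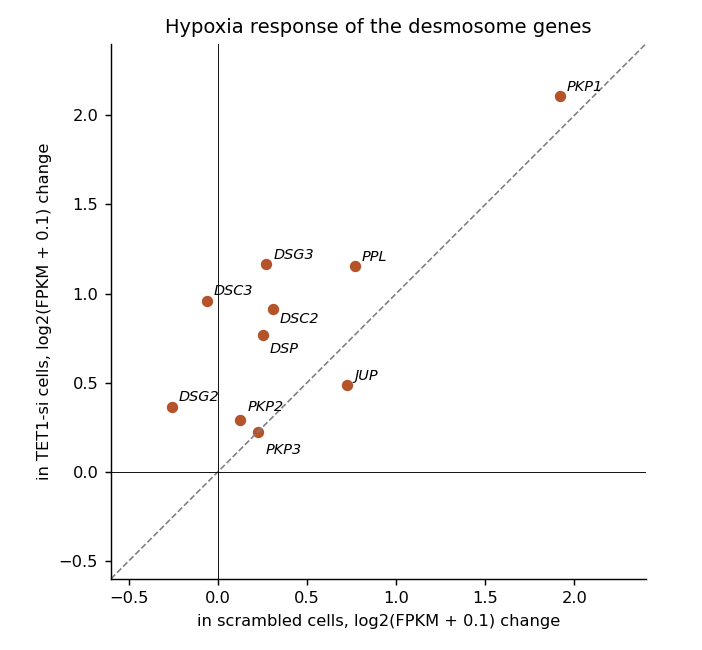
Hypoxia response of the 10 genes in scrambled cells (horizontal axis) and that in TET1-si cells (vertical axis), both as changes in log2(FPKM + 0.1), with a dashed line where they are equal. 8 genes lie above the line, of which PKP1 is within counting error of it, as is PKP3, and JUP lies below it.

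The TET1-si response was compared next in each oxygen state. The contrasts share libraries with the hypoxia responses (H-scr, N-scr, N-si and H-si each stand in 2 contrasts), so they are no separate evidence. Under hypoxia 8 of 10 members were higher in H-si than in H-scr, against 8514 of all 15057 genes. The median change of the members was 0.34, against 0.10 over all genes. At least 2-fold higher were 3 of 10, PKP2, DSC2 and PPL, and 12.0% of all genes. At least 2-fold lower were 0 of 10 and 8.35% of all genes. PKP2 was 3.15-fold higher (interval of the log2 ratio 1.59 to 1.72), DSC2 2.55-fold (1.29 to 1.42) and PPL 2.21-fold (1.12 to 1.17). PKP1, at 1.94-fold, lay just inside the limit, and with TPM scaling the count was 4 of 10, against 13.7% of all genes. PKP3 and DSG3 were lower, with changes of -0.40 and -0.32.

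Under normoxia 5 members were higher and 5 lower in N-si than in N-scr, against 9086 and 5867 of all 15057 genes. The median change of the members, 0.15, lay at that of all genes, also 0.15. With median-of-ratios scaling the median of the members was -0.020. At least 2-fold higher was 1 of 10 members, PKP2, and 12.1% of all genes. At least 2-fold lower was 1 of 10, DSG3, and 5.56% of all genes. PKP2 was 2.81-fold higher (1.43 to 1.56), and DSG3 changed by -1.21 (interval of the log2 ratio -1.37 to -1.09), with 2.35 times as much in N-scr as in N-si. DSC3 changed by -0.80, PKP3 by -0.40, DSP by -0.27 and DSG2 by -0.21. PKP1, PPL and DSC2 were 1.72-fold, 1.69-fold and 1.68-fold higher, and JUP was 1.42-fold higher. PKP2 was the only member at least 2-fold higher with TET1-si in each oxygen state, which held for 6.51% of all genes.

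Median-of-ratios scaling changed the background of these shares. Under hypoxia it gave 9.82% of genes at least 2-fold higher and 10.1% lower after TET1-si, and under normoxia 9.42% and 7.41%. With TPM, 69.1% of the genes that differed at least 2-fold between H-si and N-si were higher in H-si, against 59.1% with FPKM. Counting intervals excluded 0 for 10 of 10 members in each of the 4 contrasts. The same held for 75.1% of genes between H-scr and N-scr, 78.1% between H-si and N-si, 77.6% between H-si and H-scr, and 75.3% between N-si and N-scr. An interval without 0 was thus common at this depth, and the intervals say nothing about differences between cultures.

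The study selected genes by 3 inequalities: the scrambled hypoxia library had to exceed 2 times its TET1-si counterpart, to exceed the scrambled normoxia library, and the latter had to be no lower than its TET1-si counterpart. No member met all 3 (0 of 10), against 3.84% of all genes. The first inequality held for 0 of 10 members. On the log2(FPKM + 0.1) scale, 8.35% of all genes were at least 2-fold lower in H-si than in H-scr. The second held for 8 of 10 members, against 7969 of all 15057 genes. The third held for 5 of 10 members, and 5867 of all 15057 genes were lower in N-si than in N-scr.

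Ratios between related members within a library do not depend on how libraries are scaled, and they were computed after the values had been seen. The PKP2 to PKP3 ratio was 0.228 at normoxia and 0.213 at hypoxia in scrambled cells, against 0.844 and 0.884 in TET1-si cells. It was 3.70 times as high with TET1-si under normoxia and 4.16 times as high under hypoxia. With hypoxia the ratio changed by -0.10 on the log2 scale in scrambled cells (counting interval -0.19 to -0.009222) and by 0.07 in TET1-si cells (-0.002299 to 0.14). PKP2 made up 18.2% and 16.5% of plakophilin FPKM in the scrambled libraries of normoxia and hypoxia, against 44.5% and 42.5% in the TET1-si libraries. PKP3 made up 79.9% and 77.6% in the former and 52.7% and 48.1% in the latter.

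The desmocollins divided in a like manner. The DSC2 to DSC3 ratio was 0.191 at normoxia and 0.248 at hypoxia in scrambled cells, against 0.560 and 0.543 in TET1-si cells. It was 2.93 times as high with TET1-si under normoxia and 2.19 times under hypoxia. DSC3, the squamous form, was the larger part in each library, from 64.1% of desmocollin FPKM in N-si to 83.9% in N-scr. For the desmogleins, the DSG2 to DSG3 ratio was 8.08 in scrambled and 16.4 in TET1-si cells at normoxia, and 5.59 and 9.33 at hypoxia. It was 2.03 times as high with TET1-si under normoxia and 1.67 times under hypoxia, and it was lower in hypoxia in each knockdown state. The PPL to DSP ratio was 1.06 in scrambled and 2.16 in TET1-si cells at normoxia, and 1.52 and 2.83 at hypoxia. The PKP1 to PKP3 ratio was also higher with TET1-si, 2.27 times under normoxia and 2.56 times under hypoxia, and the PKP1 share of plakophilin FPKM was 1.85% in scrambled and 2.77% in TET1-si cells at normoxia, and 5.96% and 9.46% at hypoxia. Relative to PKP3, both other plakophilins were thus higher with TET1-si, the widely expressed PKP2 and the squamous PKP1 alike.

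**Figure D4:**
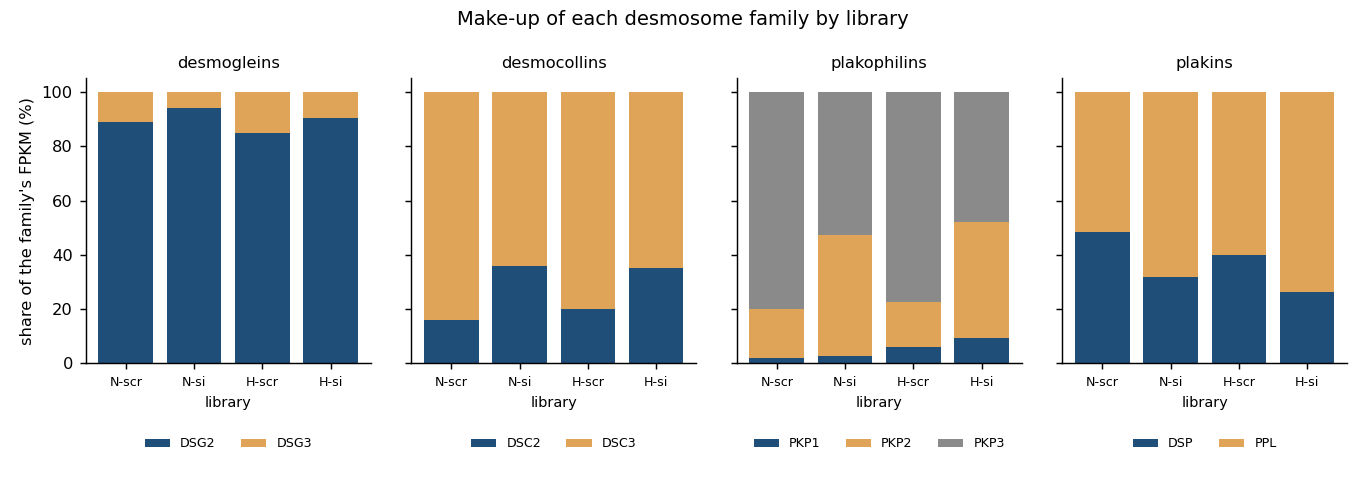
Share of each family's FPKM (percent) taken by its members in the 4 libraries, from stacked bars that start at 0. The PKP2 share is 44.5% and 42.5% in the TET1-si libraries, against 18.2% and 16.5% in the scrambled ones, and the DSC2 share follows the same division.

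The 4 cadherin genes lie within 558998 bases on chromosome 18 (28569974 to 29128971), in the order DSC3, DSC2, DSC1, DSG1, DSG4, DSG3 and DSG2. The members differed in direction within that stretch. After TET1-si under normoxia DSC2 changed by 0.74 and its neighbour DSC3 by -0.80, while DSG3 changed by -1.21 and its neighbour DSG2 by -0.21. Under hypoxia DSC2 changed by 1.34, DSG2 by 0.42, DSC3 by 0.22 and DSG3 by -0.32. RP11-534N16.1, a long noncoding RNA that overlaps the end of DSG1 and all of DSG4 on the other strand, had 1.09 FPKM in scrambled and 2.55 in TET1-si cells at normoxia, and 1.90 and 7.92 at hypoxia. RP11-75N4.2 overlaps the end of DSG2 on the other strand, and its changes of -0.21 and 0.42 were those of DSG2. Whether the libraries kept strand was not stated, so reads of this pair cannot be told apart. The other expressed genes within 1 Mb, B4GALT6, TRAPPC8, RP11-326K13.4, RNF138, FAM59A and RP11-344B2.2, were higher after TET1-si in each oxygen state, by 0.12 to 1.62. The smallest of these changes, that of RNF138 under hypoxia, lay near the median of all genes (0.10) and turned to -0.003150 with median-of-ratios scaling.

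**Figure D5:**
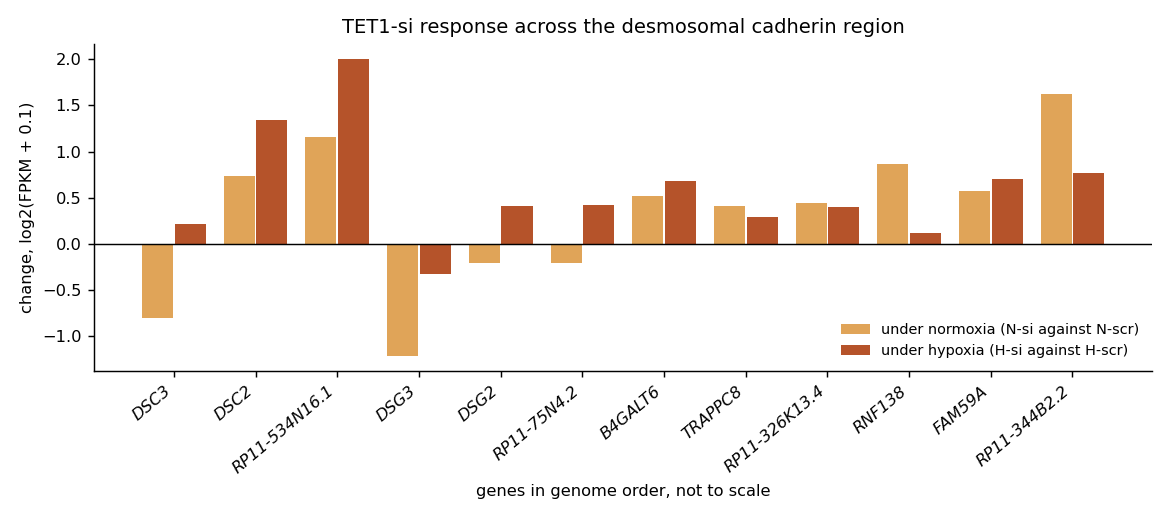
Change in log2(FPKM + 0.1) after TET1-si under normoxia and under hypoxia, for genes with a mean of at least 1 FPKM within 1 Mb of the cadherin cluster, in genome order and not to scale. DSC3 and DSG3 have bars below 0 under normoxia, at -0.80 and -1.21, and the 6 genes after RP11-75N4.2 have bars above 0 in each oxygen state, that of RNF138 under hypoxia only before median-of-ratios scaling.

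Each member was also set beside the 50 protein-coding genes nearest to it on its chromosome, with a mean of at least 1 FPKM. After TET1-si under normoxia the neighbours of DSG3 had a median change of 0.34, and 1 of 50 lay below DSG3. For DSC3 the neighbours had 0.32, and 3 of 50 lay below it. Under hypoxia 6 of 50 lay below DSG3 and 26 of 50 below DSC3. For PKP2 the neighbours had 0.62 under normoxia and 0.33 under hypoxia, and 45 and 48 of 50 lay below PKP2. For DSC2 under hypoxia they had 0.17, with 47 of 50 below it, and for PPL 0.25, also with 47 of 50 below it. Under normoxia 39 of 50 lay below DSC2 and 44 of 50 below PPL. PKP3 lay within its neighbourhood, with neighbours at -0.26 under hypoxia and 20 of 50 below it. DSP and DSG2 each had 29 of 50 below them under hypoxia, and 9 and 5 under normoxia. JUP had 33 of 50 below it under hypoxia and 40 under normoxia, and PKP1 had 44 and 41.

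Of the further desmosome genes, 9 were listed and 5 passed the minimum. PERP, a membrane protein of desmosomes, had 257 FPKM in scrambled and 216 in TET1-si cells at normoxia, and 409.8 and 438 at hypoxia. EVPL, which encodes the plakin envoplakin, had 18.3 and 24.0 FPKM in scrambled and TET1-si cells at normoxia, and 27.7 and 39.2 at hypoxia. PKP4 had 36.0 FPKM in scrambled and 32.0 in TET1-si cells at normoxia, and 24.1 and 19.3 at hypoxia. KAZN, which encodes kazrin, lay between 5.80 FPKM in N-scr and 10.7 in H-si. PNN, which encodes pinin, lay between 227 FPKM in N-scr and 150.1 in H-si. DSG1, DSG4, DSC1 and CDSN, genes of upper epidermal layers or hair, did not pass, and their highest level in a library was 0.266 FPKM (DSG1 in H-si). None of the 5 was at least 2-fold changed in hypoxia in scrambled cells, against 12.9% of all genes higher and 4.53% lower. None was after TET1-si either, against 12.0% and 8.35% under hypoxia and 12.1% and 5.56% under normoxia. In TET1-si cells 1 of 5, PERP, was 2-fold higher in hypoxia, at 1.02, against 12.5% of all genes.

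Adherens junction genes, of which 11 of 12 could be followed, had a median change of 0.26 after TET1-si under hypoxia, against 0.10 over all genes, with 7 higher and 4 lower. At least 2-fold higher were 3 of 11 (PVRL4, AJUBA and PVRL1), against 12.0% of all genes, and none was 2-fold lower. AJUBA was under 1 FPKM in both scrambled libraries and passed the minimum through its TET1-si libraries, and without it the count was 2 of 10. The lower genes were CTNNA1 (-0.86), which encodes alpha-catenin, LIMD1 (-0.46), VCL (-0.42) and CTNNB1 (-0.40). PVRL4, which encodes nectin-4, had 5.49 FPKM in scrambled and 26.7 in TET1-si cells at normoxia, and 9.86 and 61.4 at hypoxia. AJUBA, a LIM protein of junctions, had 0.388 and 1.19 FPKM in scrambled and TET1-si cells at normoxia, and 0.893 and 2.62 at hypoxia. CDH1, which encodes E-cadherin, changed by 0.45 after TET1-si under hypoxia and by 0.57 under normoxia, and was higher in hypoxia by 0.70 with the scrambled control and by 0.58 with TET1-si. CDH3 stands on more than 1 row and was not used. PVRL1, CDH1 and the 4 lower genes were named after their values were seen.

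Keratins, the filaments that desmosomes anchor, were mostly lower with TET1-si. Of the 11 of 12 listed that passed, 8 were at least 2-fold lower after TET1-si under hypoxia and 7 under normoxia, against 8.35% and 5.56% of all genes. Their medians were -1.68 and -1.87, against 0.10 and 0.15 over all genes. KRT6A passed the minimum through its scrambled libraries, and without it 7 and 6 of 10 were 2-fold lower. KRT6A had 67.7 FPKM in scrambled and 0.394 in TET1-si cells at normoxia, and 109.2 and 0.357 at hypoxia, and KRT14 had 42.1 and 0.487 at normoxia, and 99.9 and 1.41 at hypoxia. KRT16 was higher in hypoxia in scrambled cells, at 6.68 FPKM against 2.02. Paralogs and pseudogenes can share reads with single keratins, so those levels are uncertain.

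The labelled cell type was checked against markers. Of 7 squamous epithelial markers, 6 could be followed, and their summed level was 3341 FPKM in scrambled and 1204 in TET1-si cells at normoxia, and 4858 and 2191 at hypoxia. KRT5 lay between 524 and 3992 FPKM, TP63 lay between 42.1 and 54.8 FPKM, and KRT14 was under 1 FPKM in N-si. The 11 mesenchymal markers summed to 61.7 to 85.9 FPKM, 5 of them at or above 1 FPKM in each library. VIM was under 1 FPKM in the 4 libraries and COL1A2 was listed at 0. The 5 at or above 1 FPKM differed in direction. In hypoxia in scrambled cells COL1A1 changed by 2.41, FN1 by 0.60 and SNAI2 by 0.13, against -1.28 for CDH2 and -0.67 for TWIST1. After TET1-si under hypoxia CDH2 changed by 0.80 and COL1A1 by 0.37, against -2.98 for FN1, -1.26 for TWIST1 and -0.13 for SNAI2. Of 4 markers of blood, endothelial and stromal cells, 3 were found, and none reached 0.1 FPKM in a library. Without KRT5, left out after the values were seen, the other 5 summed to 668 FPKM in scrambled and 679.9 in TET1-si cells at normoxia. At hypoxia they summed to 866 and 761. The sums at normoxia lay close together, and with median-of-ratios or upper-quartile scaling that of N-si would be the lower. KRT14 and SFN were lower with TET1-si in each oxygen state, whereas CDH1 (0.57 at normoxia, 0.45 at hypoxia) and EPCAM (0.41 and 0.68) were higher, and TP63 changed by -0.27 and -0.04. The part of these markers in the changes of the members was not tested.

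PKP1 had the widest range over the 4 libraries, 2.87 on the log2(FPKM + 0.1) scale. The genes with the most similar centred profile over the 4 libraries, of 10785 with a mean of at least 5 FPKM, were GSN, SYNPO, FAM83E, DUOX1 and B3GALT4. Their Euclidean distances ran from 0.15 to 0.23. GSN, which encodes the actin-severing protein gelsolin, had 6.17 FPKM in scrambled and 10.8 in TET1-si cells at normoxia, and 23.3 and 51.3 at hypoxia. Among the members the closest profiles were those of PPL and DSC2, at a distance of 0.38, and of DSP and DSC3, also at 0.38.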

How the data were processed

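RNA from 4 FADU cultures was made into TruSeq mRNA libraries for Illumina HiSeq sequencing with 100 bp reads, given as single-end by the labels and as paired-end by the study's methods. The authors aligned reads to hg19 with TopHat, quantified genes with Cufflinks on Ensembl annotations and deposited FPKM (fragments scaled by exon length and mapped total), with 1 column per library. Versions and filters are not given in the sources used here.

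FPKM are not counts and each group had 1 library, so no test was run. Changes were computed as log2(FPKM + 0.1), which understates the change of low genes, for genes with a mean of at least 1 FPKM and with 1 row per gene ID (111 IDs on 232 rows were left out). Named genes were the 10 members, TET1, all further desmosome genes, for each other list the 2 largest changes after TET1-si under hypoxia and in hypoxia in scrambled cells, and the 5 genes most like the member of widest range. CDH1, the markers and overlapping or neighbouring genes were named besides. The members and lists were chosen with earlier results of these data known.

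Depth was recovered from 3209 genes with 1 exon longer than 800 bp, by searching for the depth and length offset that made low FPKM whole reads. This made 97.1% to 98.3% of low values whole, with a tolerance of 0.05. Depths were 22900000 and 24400000 reads for the scrambled and TET1-si libraries of normoxia, and 24500000 and 22500000 for those of hypoxia. Approximate reads used canonical transcript lengths in GENCODE v44lift37, on the same build, less 210 bp. They ran from 315 for PKP1 in N-scr to 33182 for PPL in H-si among members. The DSC2 transcript used is 12331 bp long, so that its reads depend on that choice of transcript. Intervals at 95% for the ratio of a gene between libraries are exact (Clopper-Pearson), those for levels are exact Poisson and those for differences of responses and of ratios use the Woolf formula. They cover counting error only. The search, the intervals and the 2-fold counts were tested on simulated data. Python 3.11.15, NumPy 2.4.6, pandas 2.3.3 and SciPy 1.17.1 were used. Alternatives were pseudocounts of 1 and none, median-of-ratios, upper-quartile and TPM scaling, and filters of none and of a mean of 5 FPKM.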

Additional observations from a re-analysis of the deposited data

Results flagged for a closer look

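3 members had responses of opposite sign in the compared states. The share of all genes with such responses was not computed, so this count has no background. With 1 library per group these differences were not tested across cultures. DSP changed by -0.27 after TET1-si under normoxia and by 0.25 under hypoxia, a difference of 0.51 on the log2(FPKM + 0.1) scale. DSG2 changed by -0.21 and 0.42 in the same contrasts, and by -0.26 between H-scr and N-scr and 0.37 between H-si and N-si, a difference of 0.62. DSC3 changed by -0.80 and 0.22 after TET1-si, and by -0.06 and 0.96 in hypoxia, a difference of 1.02. The hypoxia and TET1-si contrasts of a gene rest on the same 4 libraries, so that each gene has a single difference. No group was large enough to look for a deviating library.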

How the results depend on the processing

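With 1 library per group no spread between cultures is known and no replicate could be left out. No paired analysis was possible because each group had 1 library and the labels carry no replicate numbers. Pseudocounts and filters moved no median of the members beyond counting error and no count of them by over 1.5 times. Median-of-ratios scaling gave median changes of 0.21 between H-scr and N-scr, 0.22 between H-si and H-scr and -0.020 between N-si and N-scr. Upper-quartile scaling gave 0.95 between H-si and N-si, with 5 members and 14.7% of all genes at least 2-fold higher, 0.28 between H-si and H-scr and 0.028 between N-si and N-scr. TPM gave 0.38 between H-scr and N-scr, and 0.98 between H-si and N-si, with 5 members and 15.6% of all genes at least 2-fold higher. Between H-si and H-scr TPM gave 0.41, with 4 members and 13.7% of all genes at least 2-fold higher. Median-of-ratios scaling moved the median of all genes from 0.10 to -0.0078 between H-si and H-scr and from 0.15 to -0.0043 between N-si and N-scr, and TPM moved it to 0.16 in the hypoxia contrasts of each knockdown state. Set against the median of all genes under the same scaling, the medians of the members differed less, from 0.21 to 0.22, at 0.81, from 0.23 to 0.24, and from -0.015 to -0.0020, for H-scr against N-scr, H-si against N-si, H-si against H-scr and N-si against N-scr. Of 50 changes of single members, 25 moved outside their counting interval with median-of-ratios scaling, 29 with upper-quartile scaling and 31 with TPM. A pseudocount of 1 moved 3 of them. The counting intervals thus do not cover the choice of scaling. No change of at least 2-fold turned its sign under the alternatives. The sign of 2 small ones turned, that of DSC3 in hypoxia in scrambled cells with TPM (0.055) and that of the PKP3 difference of hypoxia responses with each scaling (0.041, 0.058 and 0.014). The count that met the 3 inequalities was 0 under each scaling and filter.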

Other observations

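Genes known to act on desmosomes, which the comparisons above did not cover, differed between libraries in both directions. Of 13 desmosome regulators that passed the minimum, 2 (FLOT2 and ATP2A2) were at least 2-fold lower and 1 (PRKCA, at 1.06) higher after TET1-si under hypoxia, against 8.35% and 12.0% of all genes. With median-of-ratios scaling PRKCA had 0.94 and was no longer 2-fold higher. FLOT2, which encodes the membrane scaffold flotillin-2, had 80.9 FPKM in scrambled and 18.1 in TET1-si cells at normoxia, and 102.0 and 33.5 at hypoxia. ATP2A2, the calcium pump affected in Darier disease, had 258.5 FPKM in scrambled and 125 in TET1-si cells at normoxia, and 261 and 119.4 at hypoxia. PRMT1, an arginine methyltransferase, was lower in hypoxia, with 326 FPKM in scrambled and 199.6 in TET1-si cells at normoxia, and 189.8 and 99.2 at hypoxia, and EGFR was higher, with 64.0 and 61.4 FPKM at normoxia and 103 and 106 at hypoxia.

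Of 13 transcription factors listed, 8 passed the minimum, and after TET1-si under hypoxia 1 was at least 2-fold higher and 2 lower, against 12.0% and 8.35% of all genes. GRHL2, an activator of epithelial junction genes, was the higher, with 63.5 FPKM in scrambled and 147 in TET1-si cells at normoxia, and 70.0 and 159.6 at hypoxia. CEBPB had 13.2 FPKM in scrambled and 7.52 in TET1-si cells at normoxia, and 15.6 and 5.93 at hypoxia, and TWIST1 had 5.83 and 1.60, and 3.63 and 1.46. KLF4 was higher in hypoxia in scrambled cells, at 10.0 and 24.3 FPKM. KLF5 had 39.4 FPKM in scrambled and 19.4 in TET1-si cells at normoxia, and 30.5 and 28.7 at hypoxia. N-si was its lowest library, as it was for TP63 and SNAI2 of this list and for the members DSP, PKP3, DSG3 and DSC3. The other factors that passed were lowest in other libraries, and the share of all genes with N-si lowest was not computed. A link between these genes was not tested. ZEB1, ZEB2 and SNAI1 were under 1 FPKM in the 4 libraries. SNAI2, of the same repressor family as SNAI1, had 26.8 FPKM in scrambled and 17.6 in TET1-si cells at normoxia, and 29.3 and 26.8 at hypoxia. PRKCA, GRHL2, KLF5 and SNAI2 were named after their values were seen.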
